A study of Mus musculus with 14 samples.

Results

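The 6 genes described here, Adgrg1, Nuggc, Tfrc, Cd248, S100a10 and Zfp831, were chosen by a measured value: in earlier results of these arrays, the difference that 4-hydroxytamoxifen (4OHT) made at 24 h was larger without IL-7 than with it, by more than for the other genes that passed the test of that difference. They are 6 of 19938 genes with a probe set of their own symbol on the array. Each of the 6 had 1 such probe set, so no choice between probe sets was needed. The cells were BH1-Bcl2-Ik1ER, a mouse pre-B cell line into which retroviruses had brought Bcl2, a survival protein, and a fusion of Ikaros with the estrogen receptor. Cells carrying both viruses were sorted before use, and every group below therefore carries both. All 14 arrays come from this 1 line, and no line without the fusion was analysed here, so an effect of 4OHT through the fusion and an effect of 4OHT itself cannot be told apart. IL-7 was given as 8% conditioned medium of J558L cells that overexpress the mouse cytokine, and IL-7 withdrawal meant culture without that medium. The same limit holds there, since anything else in the conditioned medium was withdrawn with IL-7.

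The 7 groups, each with 1 array from experiment 1 and 1 from experiment 2, were cells at time 0, cells after 6 h with 100 nM 4OHT in IL-7, cells after 6 h with 4OHT without IL-7, and at 24 h all 4 combinations of IL-7 and 4OHT. A 6 h group without 4OHT was not analysed here, so the 6 h comparison with time 0 joins the effects of 4OHT and of 6 h in culture. The levels are log2 values of the Affymetrix arrays, normalised together by the authors with RMA, a method that corrects background, equalises the arrays and summarises probes. A difference of 1 on this scale is a doubling. The median of all values was 7.33, array medians ran from 7.23 to 7.43, and r between both arrays of a group was 0.997 to 0.998 over all genes. The cells carried general B lineage markers: 9 of 10 listed had a probe set, all 9 were above the median of all values in at least 1 group, and their mean per array lay between 12.06 and 12.41. Listed genes of small pre-B and later B cells were mixed. Cd22, Cd72, Spib, Ikzf3, Irf4 and Irf8 lay above that median on every array. Cd2, Il2ra, Ms4a1, Rag1, Rag2, Cd83, Fcer2a, Cr2 and Bank1 lay below it on every array, and Cd74 and Cd55 on some.

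Ikaros, the lymphocyte zinc finger protein encoded by Ikzf1, can repress or activate genes and restrains the growth of pre-B cells. IL-7 is the cytokine on which these precursors depend. It signals through JAK kinases and STAT5 and keeps pre-B cells dividing, and when it falls away the cells stop cycling and rearrange their light chain genes. A fusion with the estrogen receptor is held in the cytoplasm until 4OHT binds it, after which it can enter the nucleus.

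The 6 genes encode proteins of unlike kinds. Adgrg1 encodes GPR56, an adhesion G protein-coupled receptor, and Cd248 encodes endosialin, a surface glycoprotein best known from stromal cells and pericytes. Tfrc encodes the transferrin receptor, which brings transferrin-bound iron into dividing cells. S100a10 encodes p11, the partner of annexin A2 on the inner face of the plasma membrane. Nuggc encodes a nuclear GTPase known from germinal centre B cells, also called SLIP-GC, and Zfp831 encodes a zinc finger protein.

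The promoter windows of Adgrg1 and Tfrc are shown as those of the 2 members that matched the RefSeq promoter table by symbol, so that the letters around their start sites can be read beside the levels. Both are on the plus strand of GRCm38.p6 and hold 300 bases around a listed start site, the Adgrg1 window at chr8:94976859-94977158 and the Tfrc window at chr16:32608646-32608945. Capitals mark a match to GGGAA, the core of the Ikaros binding motif.
Adgrg1: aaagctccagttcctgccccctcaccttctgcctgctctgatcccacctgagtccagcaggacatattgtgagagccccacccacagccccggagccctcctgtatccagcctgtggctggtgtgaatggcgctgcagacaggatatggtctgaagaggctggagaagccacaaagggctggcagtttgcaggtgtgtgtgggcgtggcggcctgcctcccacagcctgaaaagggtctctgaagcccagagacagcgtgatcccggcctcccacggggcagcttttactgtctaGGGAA
Tfrc: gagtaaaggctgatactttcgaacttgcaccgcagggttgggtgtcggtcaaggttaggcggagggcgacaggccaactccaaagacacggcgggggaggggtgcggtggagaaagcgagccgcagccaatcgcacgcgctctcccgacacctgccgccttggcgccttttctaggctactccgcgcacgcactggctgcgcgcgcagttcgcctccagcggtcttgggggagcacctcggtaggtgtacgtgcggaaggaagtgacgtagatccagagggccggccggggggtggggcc
The motifs searched, on both strands, were GGGAA, the longer TGGGAA that contains it, the E-box CACGTG bound by MYC, and TTCNNNGAA, the STAT motif. The Adgrg1 window held 1 match to GGGAA, beginning at base 296 of the 300, and none to the other motifs. The Tfrc window held no match to any of them. A second listed start site of each gene held no match either. Of 32851 windows of the same length in the table, 62.7% held GGGAA, 25.6% TGGGAA, 7.15% CACGTG and 8.30% TTCNNNGAA, so a GGGAA match is what most windows show. These are matches of letters and not measurements of binding. Nuggc, Cd248, S100a10 and Zfp831 had no entry in that table.

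Nuggc had the widest range of the members, 2.42 between its highest and lowest group mean. Its log2 level was 6.27 and 6.42 at time 0 in experiments 1 and 2, 6.36 and 6.55 at 6 h with 4OHT and IL-7, and 6.76 and 6.72 at 6 h with 4OHT without IL-7. At 24 h without 4OHT it read 6.44 and 6.45 with IL-7 and 6.45 and 6.51 without. With 4OHT it read 7.50 and 7.52 in IL-7 and 8.88 and 8.66 without IL-7. Both 24 h groups with 4OHT stood clear of every other group, and the group without IL-7 stood clear of the one with it by 1.26 in the means. Withdrawal of IL-7 alone left Nuggc within 0.03 of its level in IL-7. The difference with 4OHT was 1.06 in IL-7 and 2.29 without it, that is 1.23 apart, with 1.37 in experiment 1 and 1.08 in experiment 2.

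Zfp831 followed almost the same course. Its log2 level was 6.50 and 6.51 at time 0, 6.62 and 6.96 at 6 h with 4OHT and IL-7, and 6.92 and 7.10 at 6 h with 4OHT without IL-7, the 2 groups of 6 h overlapping. At 24 h it was 6.45 and 6.64 with IL-7 alone and 6.75 and 6.63 with neither. With 4OHT it was 7.53 and 7.27 in IL-7 and 8.56 and 8.38 without. Again the group with 4OHT and without IL-7 was the highest and stood clear of the next by 1.07, and the group with 4OHT in IL-7 came second. The difference with 4OHT was 0.85 in IL-7 and 1.78 without IL-7, 0.92 apart. Over the 14 arrays Nuggc and Zfp831 had a Pearson r of 0.98, the highest of the 15 pairs of members. On the 6 arrays of time 0 and 6 h alone it was 0.88. These arrays share their normalisation and fall into groups, and r is a description.

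S100a10 stood higher with 4OHT in both media and lower with the loss of IL-7 in the absence of 4OHT. Its log2 level was 11.33 and 11.04 at time 0, 11.84 and 11.73 at 6 h with 4OHT and IL-7, and 11.76 and 11.58 at 6 h without IL-7. At 24 h without 4OHT it was 11.63 and 11.57 with IL-7 and 10.80 and 10.69 without. With 4OHT it was 11.93 and 11.92 in IL-7 and 12.18 and 12.16 without. All 4 groups of 24 h stood apart from one another, the group with neither IL-7 nor 4OHT being the lowest of all 7 and the group with 4OHT alone the highest. The difference with 4OHT was 0.32 in IL-7 and 1.43 without. IL-7 loss went with a level 0.86 lower without 4OHT and 0.25 higher with it.

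Adgrg1, Tfrc and Cd248 had another pattern. At 24 h 4OHT did not go with a higher mean level of these 3 genes in IL-7, and IL-7 loss without 4OHT went with a lower one. For Adgrg1 the log2 levels were 10.69 and 10.65 at time 0, 10.58 and 10.51 at 6 h with 4OHT and IL-7, and 11.08 and 10.96 at 6 h without IL-7. At 24 h they were 11.17 and 10.75 with IL-7 alone, 10.73 and 10.37 with IL-7 and 4OHT, 10.03 and 9.80 with neither, and 10.86 and 10.63 with 4OHT alone. The cells with neither lay below all other groups. The group with 4OHT alone lay 0.07 from time 0 in the means and overlapped it. In Adgrg1 the difference with 4OHT was -0.41 in IL-7, lower in both experiments with no overlap of the groups, and 0.82 without IL-7.

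For Tfrc the log2 levels were 11.40 and 11.33 at time 0 and 11.56 and 11.69 at 6 h with 4OHT and IL-7. They were 9.59 and 9.71 at 6 h with 4OHT without IL-7, the lowest of all groups. At 24 h they were 12.05 and 11.81 with IL-7 alone, 11.88 and 11.72 with IL-7 and 4OHT, 10.16 and 10.27 with neither, and 11.54 and 10.93 with 4OHT alone. Without IL-7, the 24 h cells with 4OHT were thus well above those of 6 h, by 1.58 in the means, and still below both groups in IL-7. The 2 experiments differed most here: the 24 h difference with 4OHT without IL-7 less that with IL-7 was 1.54 in experiment 1 and 0.75 in experiment 2. In IL-7 the difference with 4OHT was -0.13 and the 2 groups overlapped.

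For Cd248 the log2 levels were 9.32 and 9.51 at time 0, 9.80 and 10.05 at 6 h with 4OHT and IL-7, and 9.29 and 9.52 at 6 h without IL-7. At 24 h they were 9.85 and 9.94 with IL-7 alone, 9.47 and 9.45 with IL-7 and 4OHT, 9.04 and 9.17 with neither, and 9.65 and 9.93 with 4OHT alone. Cd248 had the smallest range of the 6, 0.81 between its highest and lowest group mean. In IL-7 the cells with 4OHT were lower by 0.44 and did not overlap those without. Without IL-7 they were higher by 0.68 and did not overlap either, so 4OHT went with opposite differences in the 2 media in both experiments.

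**Figure D1:**
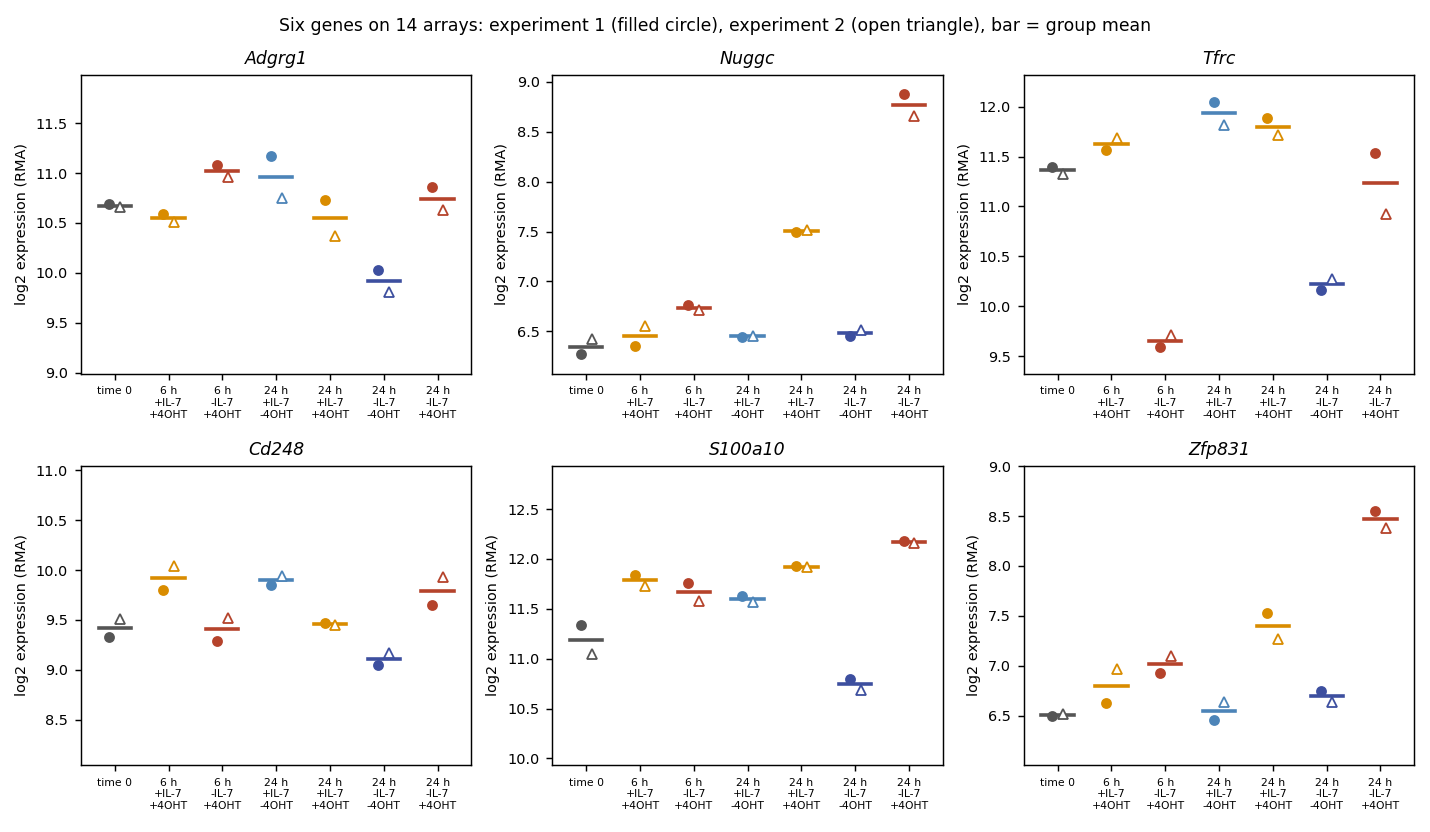
Log2 level of each member on all 14 arrays, by group, with the group mean as a bar and a symbol for each of the 2 experiments. Nuggc and Zfp831 stand highest with 4OHT at 24 h and higher still without IL-7. Every member is lower at 24 h with neither IL-7 nor 4OHT than with 4OHT alone. In Adgrg1, Tfrc, Cd248 and S100a10 the level with neither is also below that with IL-7 alone.

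A larger 4OHT difference without IL-7 does not say whether a gene was higher with 4OHT in IL-7 as well. In Nuggc, Zfp831 and S100a10 the cells with 4OHT were higher in IL-7 too, by 1.06, 0.85 and 0.32 in the means and in both experiments, with no overlap of the groups. In Adgrg1, Tfrc and Cd248 they were not, and there the mean level with 4OHT alone was below that with IL-7 alone. These 24 h values are the ones the members were selected on and are given without a test. In that comparison 0.687% of all genes passed in either direction and 0.0702%, 14 genes, in the direction of the members, from which nothing is read here. In the order of all genes by the difference the members stood at places 1, 2, 4, 6, 7 and 13, from 1.24 for Adgrg1 to 0.92 for Zfp831. The genes between them, from Nkg7 at 1.18 down to Klrb1c at 0.93, had not passed the threshold in the fit. The next below were E2f2 at 0.89, Fcrl1 at 0.87 and Polh at 0.85, so no gap separates the members from the rest.

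**Figure D2:**
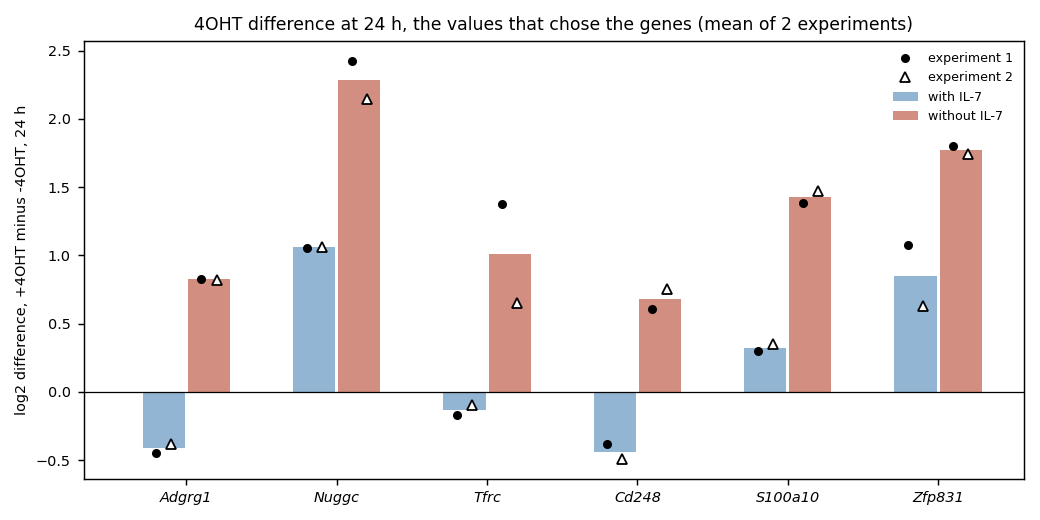
Difference in log2 level with 4OHT at 24 h for each member, in IL-7 and without IL-7, as the mean of both experiments with a point for each experiment. The difference without IL-7 exceeds that with IL-7 in all 6, as the choice of members required, and the difference in IL-7 runs from -0.44 for Cd248 to 1.06 for Nuggc.

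The group means of time 0 and 6 h did not enter the difference that chose the members, and the members were tested on these arrays. The fit takes the spread of a gene from all 14 arrays. The 6 h tests therefore share their spread with the test that the members had passed and are not fully independent of the choice. Differences were tested with limma over all 19938 genes, and the threshold was 0.05 for the p adjusted by Benjamini-Hochberg. The 3 comparisons among these 3 groups share arrays and are not independent of one another. In bulk RNA, fewer cells of a type and less RNA per cell cannot be told apart.

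Withdrawal of IL-7 for 6 h, both groups with 4OHT, gave the largest difference of any member. Tfrc fell by 1.97 on the log2 scale (SE 0.16, adjusted p = 5.75e-06), which is 3.92-fold, and was lower in both experiments. Cd248 fell by 0.51 (SE 0.12, limma adjusted p = 0.0111), with no overlap of the groups. That call was lost when the array of experiment 1 without IL-7 was left out, with an adjusted p of 0.106, or that of experiment 2 with IL-7, with 0.0944. Adgrg1 was higher without IL-7 by 0.47 (SE 0.15), with an adjusted p of 0.0524 that missed the threshold. With the experiment number as a block its limma adjusted p was 0.00193, which passed, and over all alternatives it ran from 0.00193 to 0.246. Nuggc was 0.28 higher (SE 0.09) with an adjusted p of 0.0568, which was 0.0321 with the block and ran from 0.0321 to 0.414. S100a10 at -0.12 (SE 0.10, limma adjusted p = 0.593) and Zfp831 at 0.22 (SE 0.13, limma adjusted p = 0.349) did not pass. Thus 2 of 6 members passed, both lower, where 14.3% of all genes did, 6.78% higher and 7.48% lower. With the arrays centred on their medians the calls over all genes split into 553 higher and 1256 lower, in place of 1352 and 1492.

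In IL-7, 6 h with 4OHT against time 0 raised S100a10 and Cd248. S100a10 rose by 0.60 (SE 0.10, limma adjusted p = 0.00186) and Cd248 by 0.50 (SE 0.12, limma adjusted p = 0.0178), in each case with both arrays of 6 h above both of time 0. The Cd248 call was lost without the array of experiment 1 at time 0 (0.41, limma adjusted p = 0.141) and without that of experiment 2 at 6 h (0.38, limma adjusted p = 0.149), and in a fit of the 6 arrays alone (limma adjusted p = 0.0637). The other 4 members lay between -0.12 for Adgrg1 and 0.29 for Zfp831 and did not pass. These 2 of 6 stand beside 8.77% of all genes that passed, 3.92% higher and 4.85% lower. At 24 h in IL-7 the Cd248 means were 9.46 with 4OHT and 9.90 without it, which is 0.04 and 0.48 above time 0. S100a10 stood 0.74 above time 0 there with 4OHT and 0.41 above it without. These 24 h values are described only.

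Cells at 6 h with 4OHT and without IL-7, against time 0, showed both treatments together, and 4 of 6 members passed, 3 higher and 1 lower. Zfp831 rose by 0.51 (SE 0.13, limma adjusted p = 0.0182), S100a10 by 0.48 (SE 0.10, limma adjusted p = 0.00578) and Nuggc by 0.39 (SE 0.09, limma adjusted p = 0.0127). Tfrc fell by 1.71 (SE 0.16, limma adjusted p = 2.82e-05). Adgrg1 was 0.35 higher (SE 0.15, limma adjusted p = 0.175, with the block 0.0138), and Cd248 stood at -0.01 (SE 0.12), its values at time 0 and without IL-7 overlapping. Of all genes 13.1% passed, 5.57% higher and 7.53% lower, or 507 higher and 1326 lower with median centring in place of 1110 and 1501. The 3 rises rest on few arrays. Nuggc lost its call without the array of experiment 1 at time 0 (0.31, limma adjusted p = 0.128) or either array of 6 h without IL-7 (adjusted p 0.0773 and 0.0539). Zfp831 lost its call without either array of time 0 (adjusted p 0.101 and 0.0649) or that of experiment 2 at 6 h (0.42, limma adjusted p = 0.148). S100a10 lost it without the array of experiment 1 at 6 h (0.39, limma adjusted p = 0.06). Centring the arrays on their medians also ended the calls of Nuggc (adjusted p 0.0747) and S100a10 (0.0853).

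**Figure D3:**
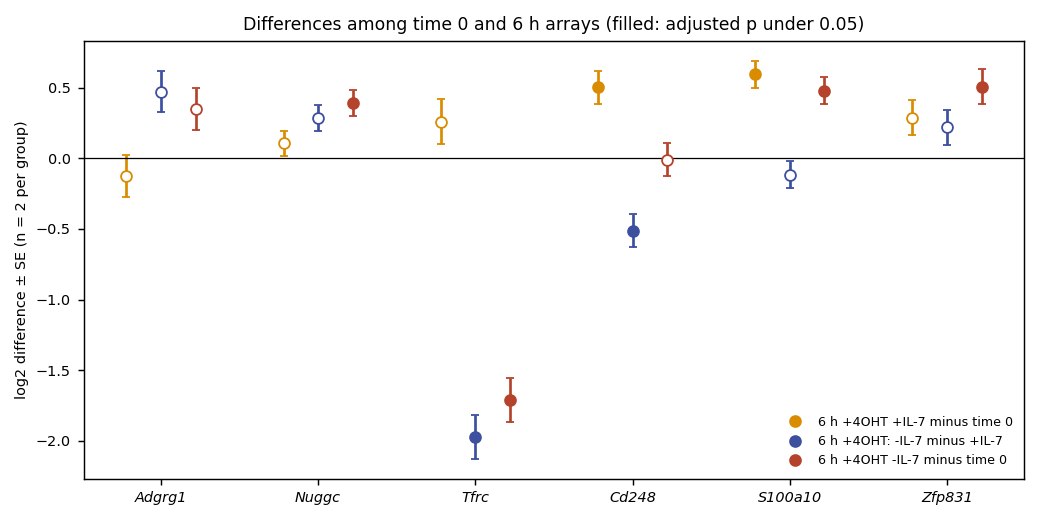
Difference in log2 level for each member in the 3 comparisons among time 0 and 6 h arrays, with the standard error of the limma fit as bars and filled symbols for an adjusted p under 0.05. Tfrc lies far below 0 in both comparisons that include IL-7 withdrawal, at -1.97 and -1.71, and no other member differs by more than 0.60.

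Of the members Nuggc and Zfp831 had their main rise after 6 h. From 6 h to 24 h with 4OHT and without IL-7, Nuggc went up by 2.03 and Zfp831 by 1.45 in the means. In IL-7 the same step was 1.05 for Nuggc and 0.61 for Zfp831. S100a10 had reached most of its level by 6 h in IL-7, with a further 0.14 to 24 h, and went up by 0.50 without IL-7. The 24 h values in these steps are those that chose the members, so the steps are described only.

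Around Tfrc, 18 further genes of iron uptake and storage were listed and all were measured. At 6 h of withdrawal 4 were lower and 1 higher, where 14.3% of all genes passed. Steap3, the endosomal ferrireductase that acts on iron brought in by the receptor, fell by 0.63 (SE 0.09, limma adjusted p = 0.00073). Slc39a14, a transporter of zinc and iron, fell by 0.55 (SE 0.08, limma adjusted p = 0.000781), Pcbp1, an iron chaperone, by 0.31 and Slc25a37, the mitochondrial iron importer, by 0.30. Tfr2, the second transferrin receptor, was 0.27 higher (limma adjusted p = 0.0464). The iron regulatory proteins that bind Tfrc mRNA differed little there, Aco1 by -0.12 and Ireb2 by 0.09 with adjusted p of 0.485 and 0.515 in limma. The ferritin chains Fth1 at 0.14 and Ftl1 at 0.21 did not pass, Ftl1 doing so with the block (adjusted p = 0.022 against 0.139), and the iron exporter Slc40a1 stood at -0.08.

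At 24 h without IL-7, 4OHT went with 2 higher and 3 lower of the 18 iron genes, where 15.3% of all genes passed. Hfe, a partner of the transferrin receptor, fell by 1.44 and Steap3 by 0.84. The metal transporter Slc11a2 fell by 0.48. Fbxl5, the iron sensor that targets iron regulatory protein for degradation, rose by 0.86 and Fth1 by 0.29 (SE 0.09, limma adjusted p = 0.0382). In IL-7, where 9.16% of all genes passed with 4OHT, Hfe fell by 1.16 and Fbxl5 rose by 0.93, and these were the only 2 of the 18 to pass in that fit. Steap3 was thus lower with 4OHT at 24 h without IL-7 while Tfrc was higher by 1.01.

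Tfrc is a MYC target gene, and a list of 15 measured MYC and cell cycle genes was set beside it. At 6 h of withdrawal 7 were lower and 1 higher, where 14.3% of all genes passed. Myc itself fell by 2.13 (SE 0.11, limma adjusted p = 2.66e-07), and its target Srm, the spermidine synthase, fell by 3.29. Odc1, the ornithine decarboxylase, fell by 1.47 and Ccnd2, a D-type cyclin, fell by 2.71. In these cells Tfrc, Myc, Srm and Odc1 were all lower without IL-7 at 6 h. At 24 h without IL-7 they parted: with 4OHT, Myc fell by 2.70 (SE 0.11, limma adjusted p = 1.7e-08), Srm fell by 2.39, Ccnd2 fell by 1.80 and Odc1 fell by 1.05 (SE 0.21, limma adjusted p = 0.00448). In that comparison 8 of the 15 were lower, where 15.3% of all genes passed, while Tfrc was higher by 1.01 on the same 4 arrays. That Tfrc value is among those that chose it, and it was 1.37 in experiment 1 and 0.65 in experiment 2. IL-7 loss without 4OHT lowered 13 of the 15 at 24 h, among them Myc by 0.80, and with 4OHT all 15, where 20.0% and 24.3% of all genes passed. Tfrc was lower by 1.71 and by 0.57 in those comparisons.

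**Figure D4:**
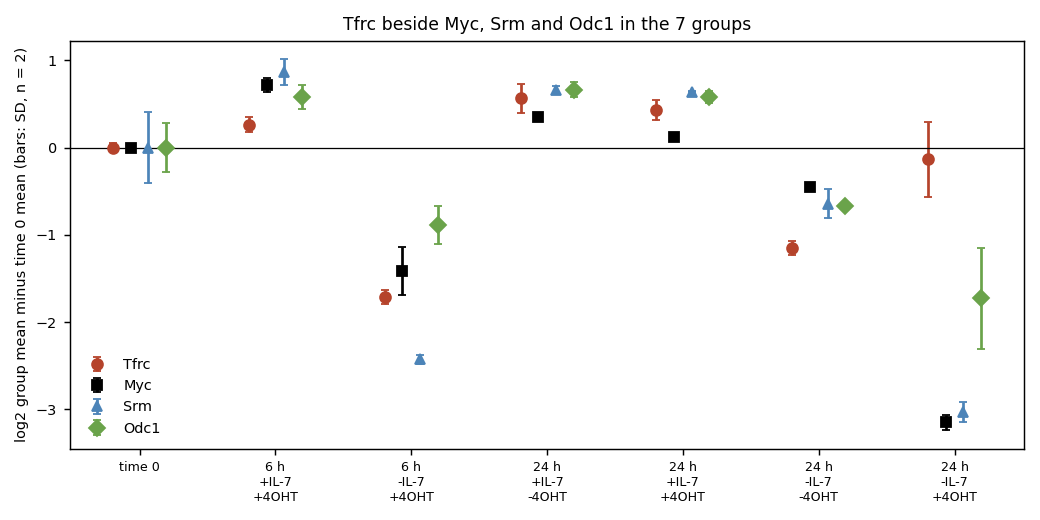
Log2 difference from the time 0 mean of Tfrc, Myc, Srm and Odc1 in the 7 groups, with the group mean as a symbol and the SD of 2 arrays as bars. All 4 genes are lower at 6 h without IL-7, whereas at 24 h without IL-7 the cells with 4OHT have more Tfrc and less Myc, Srm and Odc1 than those without 4OHT.

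Of 16 measured S100 genes, annexins and their partners beside S100a10, those that passed at 6 h with 4OHT in IL-7 or with 4OHT at 24 h were lower. At 6 h in IL-7 they were Anxa1, which fell by 0.84, and Anxa5, which fell by 0.57, where 8.77% of all genes passed. At 24 h 4 were lower in IL-7 and 5 without it, where 9.16% and 15.3% of all genes passed, the largest being Anxa1 by 1.32 (SE 0.24, limma adjusted p = 0.00213), S100a1 by 1.29 and Anxa5 by 1.03 without IL-7. S100a10 stood higher with 4OHT in those same comparisons. Anxa2, whose protein p11 binds, lay between 5.99 and 6.20 in the group means, below the median of all values, and stood at -0.08 with 4OHT at 24 h without IL-7 (SE 0.10, limma adjusted p = 0.754). Ahnak, a large scaffold bound by the p11 and annexin A2 complex, rose by 1.08 at 6 h of withdrawal (SE 0.14, limma adjusted p = 0.000245), where S100a10 did not pass.

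Of 22 measured adhesion receptors and partners of GPR56, 1 passed at 6 h of withdrawal, Arhgef12, which was 0.37 higher, where 14.3% of all genes passed. With the block 4 were higher, where 4243 of 19938 genes passed. The tetraspanins Cd81 and Cd9, membrane partners of GPR56, were lower with 4OHT at every time. At 6 h in IL-7 Cd81 fell by 0.41 (SE 0.07, limma adjusted p = 0.00275) and Cd9 by 0.71. At 24 h Cd81 fell by 0.40 in IL-7 and by 0.54 without, and Cd9 by 1.13 and 1.25. Gna13, a G protein alpha subunit used by the receptor, was 0.24 higher with 4OHT at 24 h without IL-7 (SE 0.06, limma adjusted p = 0.0223), and Arhgef1, an exchange factor that it activates, was 0.73 higher. Another adhesion receptor, Adgra3, was lower by 0.79 there, where Adgrg1 was higher by 0.82. In that comparison 3 of the 22 were higher and 4 lower, where 15.3% of all genes passed. In IL-7 at 24 h these genes differed in the same directions. Means without and with 4OHT were 11.49 and 11.65 for Gna13, 10.22 and 10.73 for Arhgef1, and 9.88 and 9.48 for Adgra3. Of the 22, 0 passed the test of the difference of effects, where 0.687% of all genes did.

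Among 15 measured germinal centre genes set beside Nuggc, 4 were higher and 1 lower at 6 h of withdrawal, where 14.3% of all genes passed, and with the block 8 and 1, where 4243 of 19938 genes passed. Bcl6, the master repressor of germinal centre B cells, was higher by 2.48 (SE 0.09, limma adjusted p = 2.92e-08), and against time 0 it fell by 2.38 at 6 h with 4OHT in IL-7. Plxnb2 was higher by 0.52, Klhl6 by 0.50 and Mef2c by 0.31, and Ung, the uracil glycosylase of antibody diversification, fell by 0.89. Without IL-7 at 6 h, Bcl6, Plxnb2 and Mef2c lay near time 0, with means of 10.20, 11.77 and 11.54 against 10.10, 11.75 and 11.53. Their means at 6 h with 4OHT in IL-7 were lower, at 7.73, 11.26 and 11.23. Klhl6 stood at 11.91 at time 0, 11.92 in IL-7 and 12.43 without. At 24 h 4OHT raised Aff3 by 0.81 in IL-7 and by 0.92 without, and the coactivator Pou2af1 by 0.51 and 0.45. Bcl6 was 0.43 lower with 4OHT without IL-7 (limma adjusted p = 0.00489), where Nuggc was 2.29 higher.

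For Cd248, at most 2 of the 8 listed relatives and ligands passed in any comparison, where between 0.687% and 24.3% of all genes did. Thbd, thrombomodulin of the same lectin family, was 0.40 higher at 6 h of withdrawal, where Cd248 fell. It was higher with 4OHT at 24 h, by 0.36 in IL-7 and by 0.56 without. Cd93, another member of the family, was 0.32 higher with 4OHT without IL-7. Lgals3bp, a reported ligand, fell by 1.80 at 6 h of withdrawal (SE 0.43, limma adjusted p = 0.0145). Markers of stromal cells, in which Cd248 is best known, lay low: 3 of 10 were above the median of all values in any group and their mean per array ran from 6.62 to 6.88.

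Genes of the IL-7 response were read as a check on the withdrawal. Of 12 measured, 6 were lower and 1 higher at 6 h of withdrawal, led by the STAT5 targets Cish, which fell by 2.99 (SE 0.08, limma adjusted p = 4.54e-09), and Socs2, which fell by 1.49. Of all genes 14.3% passed there. Against time 0, 7 of the 12 were higher and 1 lower at 6 h with 4OHT in IL-7, where 8.77% of all genes passed. Group means went from 8.27 to 10.71 for Cish and from 11.64 to 13.17 for Socs2. How far the same change enters the members' 6 h differences from time 0 was not tested. At 6 h without IL-7 the group means were 7.72 for Cish and 11.68 for Socs2, the latter near its level at time 0. Against time 0, 2 of the 12 were lower in that group and 0 higher, where 13.1% of all genes passed. At 24 h without 4OHT IL-7 loss went with 2 lower, Cish by 1.36 and Socs2 by 1.53, and 5 higher, led by Stat5a by 0.51 and the receptor gene Il7r by 0.44. Of all genes 20.0% passed in that comparison. Cish was also lower with 4OHT, by 0.88 in IL-7 and by 0.67 without, in the comparison where the members were higher. Of 17 measured genes of small pre-B and later B cells, 4 were higher with 4OHT at 24 h in IL-7, where 9.16% of all genes passed, and 3 without, where 15.3% did. Spib, a transcription factor of maturing B cells, rose by 2.51 in IL-7 and by 2.06 without.

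Markers of 5 other kinds of cell, with 49 measured genes, were read for cells other than the line. With 4OHT at 24 h without IL-7, 2 were higher and 2 lower, where 15.3% of all genes passed. The 2 that rose were Klrb1c, a natural killer cell receptor, by 1.82, and Mzb1, a chaperone of plasma cells, by 1.14. For Klrb1c the arrays with 4OHT had an SD of 0.85, and no other T and natural killer cell marker passed. Both markers that were lower belong to the plasma cell list, as Mzb1 does. T and natural killer cell markers had array means of 5.96 to 6.17, myeloid ones 6.55 to 6.73, erythroid ones 6.39 to 6.64 and plasma cell ones 8.42 to 8.63. The part of other cells in the members' differences was not tested.

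The genes whose pattern over the 14 arrays was most like each member were taken from 1652 candidates by Pearson r. Group means of a candidate spanned at least 1 on the log2 scale, with at least 1 above the median of all values. Members, predicted genes, small RNAs, olfactory receptors and immunoglobulin segments were left out. The 24 h arrays that chose the members are among the 14, so likeness is described only. Cenpq, Polh, D17H6S56E-5 and Haus8 themselves stood at places 5, 16, 28 and 34 in the order by that difference. Nuggc was closest to S1pr1 at 0.97, Fam189a1 at 0.96 and Ifi209 at 0.96. Zfp831 was closest to Fam189a1, Rapgefl1 and Ccm2, each at 0.97. For S100a10 the closest were Polh at 0.93, Myo1c at 0.92 and Ifi30 at 0.92. For Tfrc they were Cad at 0.86, Slc25a32 at 0.84 and Ecsit at 0.83. For Adgrg1 they were Cenpq at 0.81, Haus8 at 0.81 and D17H6S56E-5 at 0.79, and for Cd248 Cradd at 0.77, Slc39a6 at 0.68 and Susd1 at 0.67. The gene closest to the mean of the 6 was Ifi30 at 0.87. Among the members themselves Nuggc with Zfp831 had 0.98, and the other pairs ran from 0.04 to 0.68. On the 6 arrays of time 0 and 6 h alone, the pairs ran from -0.98 for Adgrg1 with Tfrc to 0.88 for Nuggc with Zfp831.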

How the data were processed

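The log2 values deposited by the authors cover 35556 probe sets on 14 arrays and were made with RMA in Affymetrix Expression Console 1.1, per the submitters' processing notes. Its settings and the genome build were not given in the sources used here. Values were used as deposited. Of the probe sets 21789 had 1 symbol, 1621 several and 12146 were unlisted. The brightest probe set per gene was used, which left 19938 genes. Scanner files were not used here, so detection and saturation are unknown, and the number of arrays limits the precision (median SE of a difference 0.0912).

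One limma 3.58.1 fit in R 4.3.3 held all 14 arrays with a mean per group, 7 residual and 4.83 prior degrees of freedom. Tests were two-sided, with Benjamini-Hochberg adjustment over all genes, and the method was tested on simulated data. An exact permutation test of 2 arrays against 2 cannot go below p = 0.333. The experiment number pairs the arrays, which the labels give as independent experiments. Their deviations from the group means correlated at 0.124 to 0.631 over 21 pairs of groups (median 0.392). The members and gene lists were chosen with earlier results of these data known. Genes are named where they are members, partners listed by name, list genes that passed (the 4 largest per list), the closest in pattern, or next in the order. Alternatives were the block, fits of fewer arrays, renewed scaling and a filter on dim genes.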

Additional observations from a re-analysis of the deposited data

Results flagged for a closer look

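Among the listed genes, 3 had a 4OHT effect at 24 h that differed between media with and without IL-7 by a limma test of the difference itself, all in the direction opposite to the members. Over all genes 0.687% passed that test, 123 lower and 14 higher, so this direction is the one most calls took. For Myc the effect without IL-7 less that with IL-7 was -2.47 (SE 0.15, limma adjusted p = 3.05e-05), from -0.23 in IL-7 and -2.70 without. For Srm it was -2.37 (SE 0.22, limma adjusted p = 0.000581), from -0.03 and -2.39. For Vpreb1, a surrogate light chain gene among the B lineage markers, it was -0.75 (SE 0.11, limma adjusted p = 0.00756), from -0.59 and -1.34.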

How the results depend on the processing

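The 18 member results at 6 h were recomputed under 10 alternatives each, 180 values, of which 154 kept direction and side of the threshold, 14 lost the call, 9 gained one and 3 changed sign. Both Tfrc calls and S100a10 at 6 h in IL-7 held throughout. The sign changes were all in Cd248 at 6 h without IL-7 against time 0, which was not called (-0.01): 0.0171 after quantile normalization, 0.0842 without the experiment 2 array of time 0 and 0.105 without the experiment 1 array of 6 h without IL-7, with -0.125 as the lowest with 1 array left out. Where 1 array is left out, the lone array of that group is assumed to vary like the other groups. The members that passed at IL-7 withdrawal were 4 with the replicate block and 4 without dim genes (main 2), and 1 to 2 with 1 array left out. At 6 h in IL-7 against time 0 there was 1 in the fit of 6 arrays (main 2), and 1 to 2 with 1 array left out. At 6 h without IL-7 against time 0 there were 2 with median centring (main 4), and 2 to 3 with 1 array left out. Beside the calls given in the report the block changed no other member call. Listed genes that passed the 24 h difference of effects were 11 with the block (main 3) and 2 to 4 with 1 array left out, and those that passed at IL-7 loss without 4OHT were 35 to 46 with 1 array left out (main 56), 35 being without the experiment 2 array with neither IL-7 nor 4OHT.

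Over all genes the block gave 2999 calls in place of 1748 at 6 h in IL-7, 3994 in place of 2611 at 6 h without IL-7 against time 0, 3324 in place of 1826 with 4OHT at 24 h in IL-7, and 449 in place of 137 for the difference of effects. Median centring gave 1809 in place of 2844 at withdrawal and 66 in place of 137 for the difference of effects. It moved the split of higher to lower calls from 1352 and 1492 to 553 and 1256 at withdrawal, from 1110 and 1501 to 507 and 1326 at 6 h without IL-7 against time 0, from 2232 and 1750 to 1186 and 1562 at 24 h of IL-7 loss without 4OHT, and from 2552 and 2294 to 947 and 2313 with 4OHT, where it shifted the median of all genes by -0.104. Quantile normalization moved it from 1041 and 785 to 824 and 1125 with 4OHT at 24 h in IL-7. With 1 array left out the counts over all genes fell to 1067 at lowest at 6 h in IL-7 and to 1490 at withdrawal, both without the experiment 1 array of 6 h with IL-7, and to 1388 at 6 h without IL-7 against time 0, without the experiment 1 array of time 0. At 24 h they fell to 847 with 4OHT in IL-7 without the experiment 1 array with both, to 1841 with 4OHT without IL-7 and to 2279 for IL-7 loss without 4OHT, without the experiment 1 and the experiment 2 array with neither, and to 50 for the difference of effects, without the experiment 2 array with IL-7 alone. The causes were not tested. Only 2 arrays a group limit what can be told apart.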
